A study of Arabidopsis thaliana with 24 samples.

Results

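The data described here compare the Arabidopsis exa1-1 mutant with the wild type under the unstressed control condition of a salt experiment, called MS after the medium. The libraries were chosen by the genotype and treatment in the column names of the count table, which gives 6 of the 24 libraries of the series, 3 per genotype. Of the 32833 genes in that table, 25933 had a count in these libraries and 21453 had enough counts to be tested. In the series, polysome-bound mRNA of whole 9-day-old seedlings was sequenced with strand-specific paired-end libraries after 60 min in MS, in 200 mM NaCl, at 23 °C or at 39 °C. The wild type was Col-0, the mutant was exa1-1, and both genotypes had grown on Murashige and Skoog medium with sucrose. No agent was added in MS, and the labels state no other allele or transgene in either genotype. The replicates are called independent and biological, each extract came from a sample of many seedlings, and exa1-1 is the only mutant allele in the series, so the allele and the loss of the gene cannot be told apart.

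EXA1, whose name stands for essential for potexvirus accumulation, encodes a large protein with a GYF domain, a fold that binds proline-rich peptides, and a motif that binds the cap-binding factor eIF4E. Earlier work on the gene concerned resistance to plant viruses and a repressive role in the translation of NLR immune receptors, the intracellular sensors of pathogen effectors. Messages recovered with polysomes carry several ribosomes, so each value here is the amount of a message bound to them. Without total RNA, which was not used here, more transcript and heavier ribosome loading cannot be told apart. Whole seedlings were extracted, and fewer cells of a type and less RNA per cell cannot be told apart either.

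The 6 libraries held between 17871890 and 20629439 counts, and 0 of their 15 pairs were identical. Correlations of log2 levels were 0.9913 to 0.9934 within a genotype and 0.9792 to 0.984 between genotypes. The first principal component, with 73.1% of the variance, separated the genotypes. The second, with 10.6%, set replicate 3 of exa1-1 at 11 apart from the mutant's other replicates at -5.32 and -8.5. Some of the counts that depend on it are therefore also given without it. Without it 3016 genes were called higher and 3715 lower, in place of 3535 and 4182. Levels below are CPM, the usual counts scaled to a common library size, on library sizes scaled by TMM, a normalization that assumes that most genes do not differ. Fold changes are log2 values of exa1-1 against the wild type with their standard error, adjusted p-values are from edgeR's quasi-likelihood test with Benjamini-Hochberg correction over all genes tested, and a gene is called when that value is under 0.05.

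EXA1 itself (AT5G42950; TAIR10.1 chromosome 5, 17224270 to 17231384, plus strand) was at 65.3, 67.0 and 64.9 CPM in the wild type and at 9.44, 9.19 and 10.5 CPM in exa1-1. The mutant libraries held 176 to 219 counts of the gene where the wild-type libraries held 1210 to 1385. The groups lay far apart, and the level was 6.76-fold lower in exa1-1 (log2 fold change -2.76 ± 0.069, n = 3 per group, adjusted p = 1.63e-29). Which stretch of the gene the remaining counts came from cannot be seen in a table of counts per gene.

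**Figure D1:**
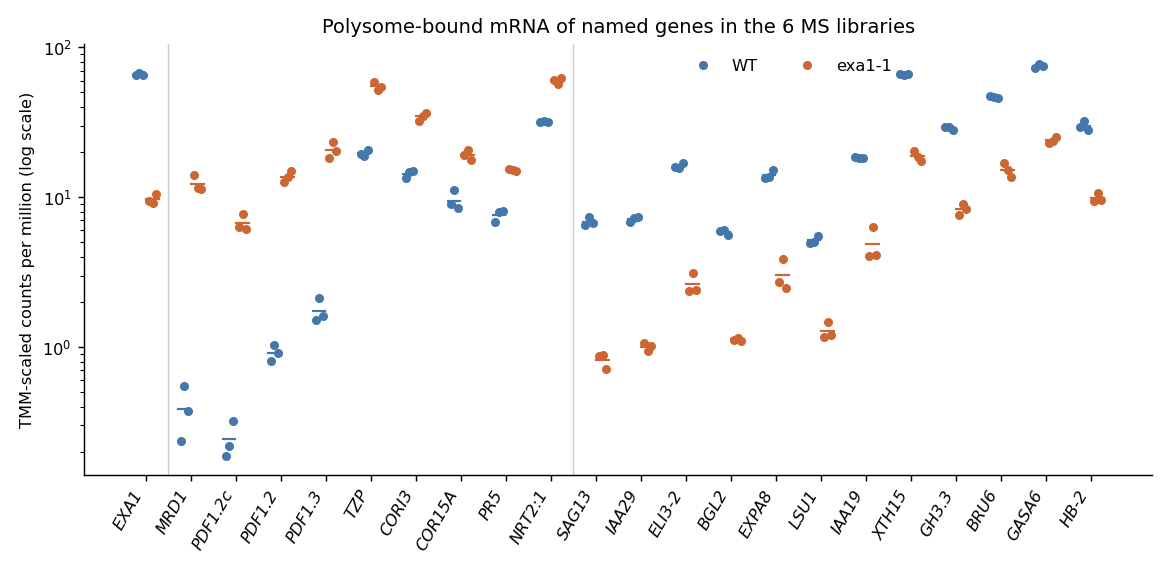
TMM-scaled CPM (log axis) of EXA1 and 21 other named genes in each of the 6 MS libraries, wild type in blue and exa1-1 in orange; short lines are means of 3 libraries. EXA1 is on the left, followed by genes higher in exa1-1 and then by genes lower in exa1-1. The genes other than EXA1 were chosen among those in which the genotypes do not overlap.

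The genotypes differed in many genes by small amounts. Of the 21453 genes tested, 7717 were called, or 36.0%, with 3535 higher in exa1-1 (16.5%) and 4182 lower (19.5%). These shares are the background against which the counts in each gene group below are to be read. The median log2 fold change over all genes was 0.0023, and 80.1% of the called genes differed by less than 1.5-fold. At least 2-fold were 520 genes, or 2.42%, of which 127 were higher and 393 lower. The groups did not overlap in 9627 genes, or 44.9% of those tested. The direction of the many small differences depended on the processing. With library totals alone 5717 genes were higher and 2951 lower, so that 66.0% of calls were higher in place of 45.8%. A limma fit on log2(FPKM + 1), which changed the test and the filter along with the scale, gave 4981 higher and 2855 lower, or 63.6% higher.

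Plant defensin genes of the PDF1 family were among the genes with the highest fold changes in exa1-1. Defensins are small secreted antifungal proteins, and PDF1.2 is the customary marker of combined jasmonate and ethylene signalling. PDF1.3 was at 1.51, 2.13 and 1.61 CPM in the wild type and at 18.4, 23.5 and 20.4 CPM in exa1-1. The levels of PDF1.2 were 0.802, 1.04 and 0.912 CPM in the wild type against 12.7, 13.6 and 14.9 CPM. PDF1.2c stood at 0.189, 0.218 and 0.322 CPM against 6.33, 7.78 and 6.18 CPM. These genes were picked under a rule that required no overlap between the genotypes. Their log2 fold changes were 3.57 ± 0.141, 3.90 ± 0.165 and 4.77 ± 0.247 (adjusted p = 5.68e-22, 9e-22 and 5.43e-19). PDF1.2b was called as well, on 2, 2 and 0 counts in the wild type against 34, 46 and 26. The coding sequences of these 4 genes, 243 bases each, differ from one another by 13 to 21 bases (91.4% to 94.7% identical), and how reads that match several of them were counted is not given in the sources used here, so the split between them is uncertain.

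The 250 bases before the annotated start of each PDF1 gene, shown because these 4 paralogs were all higher in exa1-1, were read from the RefSeq genome TAIR10.1, on the strand of the gene. Capitals mark GCCGCC, the GCC box that ethylene response factors bind, searched on both strands. The windows are chr5:17907639-17907888 (minus strand) for PDF1.2, chr2:11088873-11089122 (plus) for PDF1.2b, chr5:17909508-17909757 (minus) for PDF1.2c and chr2:11087030-11087279 (plus) for PDF1.3.
PDF1.2: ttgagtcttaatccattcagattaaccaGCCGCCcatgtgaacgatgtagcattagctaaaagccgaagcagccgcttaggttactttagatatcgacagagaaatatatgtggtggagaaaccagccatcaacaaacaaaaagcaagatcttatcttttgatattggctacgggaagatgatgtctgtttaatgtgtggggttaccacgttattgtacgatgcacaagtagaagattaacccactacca
PDF1.2b: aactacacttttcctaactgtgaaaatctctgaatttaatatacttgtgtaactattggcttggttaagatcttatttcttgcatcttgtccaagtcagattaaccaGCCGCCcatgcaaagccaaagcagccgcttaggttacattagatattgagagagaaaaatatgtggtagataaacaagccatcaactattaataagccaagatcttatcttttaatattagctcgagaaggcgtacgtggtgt
PDF1.2c: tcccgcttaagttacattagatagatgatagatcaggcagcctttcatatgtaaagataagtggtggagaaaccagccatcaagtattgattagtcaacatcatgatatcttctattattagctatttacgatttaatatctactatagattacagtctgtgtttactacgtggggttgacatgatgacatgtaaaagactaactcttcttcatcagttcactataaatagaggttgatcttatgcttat
PDF1.3: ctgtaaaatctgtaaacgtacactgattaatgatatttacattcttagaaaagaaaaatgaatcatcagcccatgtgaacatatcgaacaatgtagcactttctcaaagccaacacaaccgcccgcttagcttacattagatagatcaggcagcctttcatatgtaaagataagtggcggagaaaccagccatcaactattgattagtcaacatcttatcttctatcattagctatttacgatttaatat
PDF1.2 held 1 match, which begins 222 bases before its start, and PDF1.2b held 1 match at 143 bases. PDF1.2c and PDF1.3 held none in this window, although they were higher in exa1-1 too. The box occurs in 1.87% of the 27419 promoter windows of the same length. Of the 405 tested genes with the box, 16.5% were higher and 22.7% lower in exa1-1, beside 16.5% and 19.5% of all genes tested. A match is a description of letters and not of binding.

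Other members of the jasmonate and ethylene defence group moved less or the other way. PR4, which encodes a chitin-binding hevein-like protein, was at 182, 189 and 192 CPM in the wild type and at 301, 310 and 284 CPM in exa1-1 (log2 fold change 0.67 ± 0.0416, adjusted p = 1.75e-16). The transcription factor gene ORA59, an activator of PDF1.2, was lower by -0.71 and ERF1, another activator, by -1.07, although the mean level of ERF1 was only 1.86 CPM in the wild type. In all, 5 of 9 tested members were higher and 2 lower. Within the jasmonate pathway itself 18 of 29 members were lower and 2 higher, with a median log2 fold change of -0.34. The repressor gene JAZ10 was at 26.0, 27.1 and 24.3 CPM against 13.1, 11.3 and 10.4 CPM (-1.15 ± 0.077), and CYP94B3, which inactivates jasmonoyl-isoleucine, was lower by -1.29 ± 0.0854. Of the synthesis genes, LOX3, LOX4, AOS, AOC3 and OPR3 were lower and AOC1 was higher (0.37), while MYC2, the central transcription factor, was not called (-0.11).

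Genes of ethylene synthesis and signalling were lower in 20 of 27 cases and higher in 2, with a median of -0.35. ERF2 was at 37.7, 37.3 and 39.5 CPM in the wild type and at 15.7, 16.3 and 13.9 CPM in exa1-1 (-1.32 ± 0.0767, adjusted p = 2.36e-17). EFE, an ACC oxidase gene that makes the last step to ethylene, was lower by -0.62, and of the ACC synthase genes ACS8, ACS11, ACS7 and ACS6 were lower by -1.79, -1.07, -0.96 and -0.41. EBF2, which targets the ethylene transcription factors for degradation, was lower by -0.69. The receptor gene EIN4 was higher by 0.28, and EIN2, the central membrane transducer, was not called (0.03).

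A few genes had little or no signal in one genotype. AT1G64795, an uncharacterized protein gene, had 0, 0 and 4 counts in the wild type and 668, 683 and 726 in exa1-1. MRD1, named for its low level in a methionine-overaccumulating mutant, was at 0.236, 0.546 and 0.376 CPM against 14.1, 11.6 and 11.3 CPM (log2 fold change 5.00 ± 0.231, adjusted p = 1.28e-20). AT1G73600, annotated as an S-adenosyl-L-methionine-dependent methyltransferase, was well counted in both genotypes, at 39.5, 42.8 and 43.9 CPM against 207, 213 and 186 CPM (2.27 ± 0.054, adjusted p = 4.74e-30). In the opposite direction, AT1G26390, a gene of the FAD-binding berberine family, fell from 5.33, 5.56 and 5.69 CPM to 0.306, 0.627 and 0.287 CPM (-3.76 ± 0.251).

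Below these, the genes most increased in exa1-1 were of mixed function. TZP, a zinc knuckle protein of light-controlled growth, was at 19.4, 18.9 and 20.8 CPM against 58.8, 52.0 and 54.1 CPM (1.48 ± 0.0661). CORI3, a cystine lyase gene of the coronatine response, was higher by 1.27 and COR15A, which encodes a chloroplast protein of frost tolerance, by 1.01. The nitrate transporter gene NRT2:1 was at 31.7, 32.0 and 31.8 CPM against 60.4, 57.2 and 62.6 CPM (0.92 ± 0.0647), and the anion channel gene SLAH2 was higher by 1.00. CYP735A2, which makes trans-zeatin-type cytokinins, and CGA1, a cytokinin-induced GATA factor, were higher by 0.88 and 0.98. The receptor-like kinase genes CRK30 and CRK28 were higher by 0.96 and 0.94. Of the 30 tested cysteine-rich receptor-like kinase genes, however, 4 were higher and 6 lower, with a median of -0.12. With a trend on coding length and GC content removed, as described below, 4 were higher and 14 lower.

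Auxin-responsive growth genes were lower in exa1-1. Auxin releases Aux/IAA repressors from their target genes, and the genes of these repressors, of GH3 enzymes that conjugate auxin and of small SAUR proteins are among those it induces within minutes. Of 25 tested genes of auxin signalling and transport 17 were lower and 1 higher, with a median of -0.52. IAA19 was at 18.5, 18.4 and 18.2 CPM in the wild type and at 4.03, 6.37 and 4.12 CPM in exa1-1 (-1.93 ± 0.113, adjusted p = 2.58e-17). IAA29 was at 6.79, 7.26 and 7.35 CPM against 1.07, 0.94 and 1.01 CPM (-2.82 ± 0.208, adjusted p = 3.13e-14). GH3.3 was at 29.5, 29.2 and 28.2 CPM against 7.66, 9.04 and 8.38 CPM (-1.80 ± 0.078, adjusted p = 1.91e-21). All of these were picked under a rule that required no overlap between the genotypes. BRU6, another GH3 gene, was lower by -1.60, IAA2 by -1.38, the GH3 gene WES1 by -1.16 and the efflux carrier gene PIN7 by -0.84. The member that was higher was EIR1, the efflux carrier of root gravitropism (0.34), whereas the receptor gene TIR1 (0.07) and the response factor genes MP, NPH4 and ARF19 (0.08 to 0.12) were not called.

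The promoters of IAA19, GH3.3 and BRU6 are shown as those of well-counted Aux/IAA and GH3 genes that carry the auxin result. Capitals mark TGTCTC, the auxin response element, searched on both strands in the 250 bases before the start. The windows are chr3:5263751-5264000 (plus strand), chr2:9866563-9866812 (minus) and chr4:17579368-17579617 (plus).
IAA19: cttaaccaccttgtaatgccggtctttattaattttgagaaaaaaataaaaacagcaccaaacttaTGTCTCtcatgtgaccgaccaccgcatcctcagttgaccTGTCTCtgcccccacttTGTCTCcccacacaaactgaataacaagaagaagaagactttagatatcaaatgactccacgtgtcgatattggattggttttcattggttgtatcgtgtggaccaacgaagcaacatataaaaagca
GH3.3: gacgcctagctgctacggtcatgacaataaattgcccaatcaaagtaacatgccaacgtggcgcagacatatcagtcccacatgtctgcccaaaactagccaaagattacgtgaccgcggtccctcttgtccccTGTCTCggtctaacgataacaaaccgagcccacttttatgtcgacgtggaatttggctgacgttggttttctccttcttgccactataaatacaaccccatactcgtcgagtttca
BRU6: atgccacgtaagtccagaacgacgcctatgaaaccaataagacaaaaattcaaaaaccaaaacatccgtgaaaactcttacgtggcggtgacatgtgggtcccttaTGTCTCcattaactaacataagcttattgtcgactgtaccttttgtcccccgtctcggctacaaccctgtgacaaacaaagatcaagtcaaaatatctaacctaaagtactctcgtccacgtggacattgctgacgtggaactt
IAA19 held 3 matches, at 184, 145 and 128 bases before its start, GH3.3 held 1 at 116 bases and BRU6 held 1 at 144 bases. The element occurs in 10.9% of all windows. Of the 2197 tested genes that hold it, 17.5% were higher and 19.0% lower, shares close to those of all genes. The window of IAA29 (chr4:15583082-15583331, plus strand) held none.

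The SAUR family followed the same direction, with 38 of 66 tested members lower, 2 higher and a median of -0.55. With a trend on GC content and coding length removed, as described below, 26 of these short genes were lower and 6 higher, and the median was -0.31. AT5G20820 was lower by -1.76, AT4G34770 by -0.96 and SAUR23 by -1.94, the last on 62 to 95 counts in the wild type. Several single genes with roles in growth were among the 25 most decreased, and they form no list with a count of its own. EXPA8, an expansin gene, was at 13.5, 13.6 and 15.3 CPM against 2.71, 3.86 and 2.49 CPM (-2.23 ± 0.162). XTH15, a xyloglucan endotransglucosylase gene, was at 66.1, 65.3 and 66.4 CPM against 20.3, 18.5 and 17.4 CPM (-1.81 ± 0.0751). HB-2, a homeodomain gene induced by shade, was lower by -1.59, the bHLH gene KDR by -1.64, PIL2 of the phytochrome-interacting factors by -1.51 and the gibberellin-regulated GASA6 by -1.65.

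**Figure D2:**
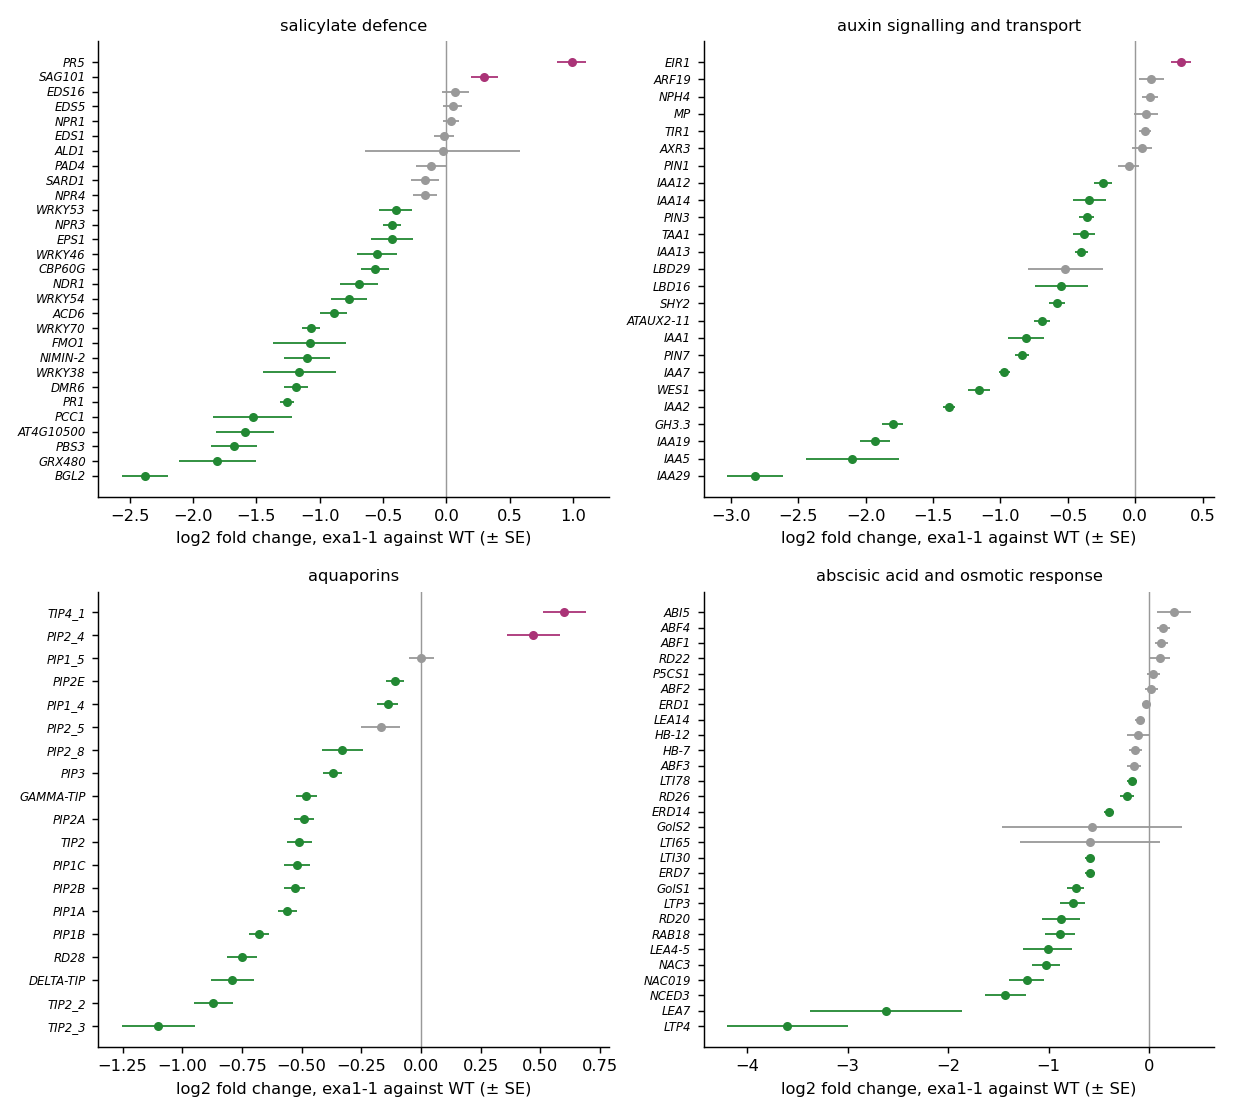
Log2 fold change of exa1-1 against the wild type in MS, with its SE, for the tested members of 4 gene groups; green members were called lower, purple members higher and grey members were not called. Most members lie left of 0 in each group, and the values of LTP4 and LEA7 rest on 2 or fewer counts in exa1-1 in each library.

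Salicylate defence genes were lower in exa1-1, with PR5 as the main exception. Salicylate is the hormone of resistance against biotrophic pathogens. It is perceived by NPR proteins and induces pathogenesis-related (PR) genes. Of 29 tested members 19 were lower and 2 higher, and the median was -0.56. PR1 was at 67.5, 66.7 and 62.5 CPM in the wild type and at 27.4, 26.0 and 28.9 CPM in exa1-1 (-1.26 ± 0.0575, adjusted p = 1.02e-20). BGL2, the glucanase gene also called PR2, was at 5.99, 6.06 and 5.63 CPM against 1.12, 1.15 and 1.1 CPM (-2.38 ± 0.185). PR5, a thaumatin-like protein gene, was at 6.84, 8.02 and 8.05 CPM against 15.4, 15.2 and 14.9 CPM, and so higher in the mutant (0.99 ± 0.113, adjusted p = 3.24e-09). The genotypes did not overlap in PR1, while BGL2 and PR5 were picked under a rule that required no overlap. The other member that was higher was SAG101 (0.30), a partner of EDS1.

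The salicylate response factor gene WRKY70 was lower by -1.07, DMR6, a salicylate hydroxylase gene, by -1.19, PBS3, which acts in salicylate synthesis, by -1.68 and FMO1 of N-hydroxypipecolate synthesis by -1.08. The upstream genes EDS1, PAD4, NPR1 and EDS16 (isochorismate synthase) were not called, with values from -0.12 to 0.07. SAG13, a senescence gene also induced by pathogens, was at 6.51, 7.37 and 6.71 CPM against 0.868, 0.888 and 0.718 CPM (-3.05 ± 0.176), and ELI3-2, an elicitor-activated dehydrogenase gene, was lower by -2.62. Of the pattern receptors and their early signalling genes, 10 of 26 were lower and 1 was higher. FLS2, the flagellin receptor gene, was at 77.4, 74.0 and 69.7 CPM against 48.8, 42.4 and 51.9 CPM (-0.63 ± 0.0608), and WRKY22 was lower by -0.84, whereas RBOHD, the NADPH oxidase gene of the oxidative burst, was higher by 0.32. Genes of camalexin and indolic glucosinolates were lower in 12 of 18 cases, among them PAD3 of camalexin synthesis (-0.82) and the regulator MYB51 (-0.52).

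NLR receptor genes did not move together. In a list of 25 tested well-known members 9 were higher and 7 lower, with a median of -0.02, which was 0.06 with library totals alone. RPP4 was at 21.9, 21.7 and 23.4 CPM against 40.9, 35.1 and 40.2 CPM (0.80 ± 0.0738, adjusted p = 1.84e-11), ADR1 was higher by 0.45 and RPS4 by 0.35. RPS2 was at 9.91, 10.9 and 10.5 CPM against 6.58, 6.11 and 7.13 CPM (-0.65 ± 0.106, adjusted p = 4.24e-06), and ZAR1 was lower by -0.42. Of the 120 tested genes annotated as NBS-LRR resistance proteins, 29 were higher and 8 lower, with a median of 0.16. Without replicate 3 of exa1-1 those higher fell to 19, without replicate 3 of the wild type those lower were 5, and without replicate 1 of exa1-1 the lower members of the shorter list were 4. These are long genes, and after a trend on coding length and GC content was taken off, as described below, 8 were higher and 22 lower, with a median of -0.08.

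Many stress-responsive genes were lower in exa1-1 in MS, where no NaCl was added. Whether the handling in MS was itself a stress was not tested. Abscisic acid (ABA) is the hormone of water deficit, and LEA proteins and dehydrins protect cells that lose water. Of 28 tested genes of ABA and osmotic response 15 were lower and 0 higher, with a median of -0.49. A second ABA list, of clade A PP2C phosphatases and ABA receptors, did not share this direction. It had 4 of 17 tested members higher and 2 lower, with a median of -0.07. NCED3, of the limiting step of ABA synthesis, was at 2.17, 2.62 and 2.74 CPM against 0.817, 0.888 and 1.05 CPM (-1.43 ± 0.207, adjusted p = 6.15e-07). The dehydrin genes ERD14, LTI30 and RAB18 were lower by -0.40, -0.59 and -0.89, and the transcription factor genes NAC019 and NAC3 by -1.22 and -1.03. The ABF factor genes ABF1 to ABF4 (-0.15 to 0.14) and P5CS1 of proline synthesis (0.04) were not called.

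Of the cold-regulated group 7 of 13 were lower and only COR15A was higher. KIN2 was at 688, 637 and 657 CPM against 364, 380 and 350 CPM (-0.86 ± 0.047, adjusted p = 8e-18), and COR47 at 550, 536 and 520 CPM against 379, 390 and 313 CPM (-0.57 ± 0.052). The touch and early stress genes were lower in 7 of 10 cases and higher in 0, with a median of -0.60. TCH4, a wall-modifying enzyme gene induced by touch, was at 176, 181 and 184 CPM against 98.0, 103 and 94.7 CPM (-0.87 ± 0.0428, adjusted p = 9.3e-20), and the zinc finger gene STZ was lower by -0.92. Heat shock genes were lower in 22 of 33 cases and higher in 0, with a median of -0.34. They ranged from the small heat shock gene HSP17.6II, on 87 to 97 counts in the wild type and 21 to 31 in exa1-1 (-1.79 ± 0.207), to the abundant HSC70-1 (-0.22 ± 0.0419).

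Nuclear genes of photosynthesis were lower nearly throughout. They encode the light-harvesting proteins that bind chlorophyll, subunits of both photosystems and the small subunit of Rubisco. Of 50 tested members 44 were lower and 0 higher, the median was -0.55, and together they made up 22460, 22670 and 19620 CPM in exa1-1 against 29890, 30770 and 29980 CPM in the wild type. LHCB3 was at 105, 109 and 107 CPM against 46.5, 50.3 and 43.7 CPM (-1.19 ± 0.0504, adjusted p = 8.59e-22). CAB1 was at 6570, 6790 and 6540 CPM against 4530, 4440 and 3480 CPM (-0.68 ± 0.0737), and RBCS1A was lower by -0.32. All 3 mutant libraries lay below the wild type in these genes, with replicate 3 the lowest in LHCB3 and CAB1. PSBO1 and PSBO2 of the oxygen-evolving complex were not called (-0.04 and -0.10). Genes of the chloroplast genome, of which few transcripts carry a poly(A) tail, were called higher in 1 and lower in 1 of 44 cases.

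Markers of root and shoot were compared beside this result, since whole seedlings can differ in the share of each organ. Of 12 shoot markers, which include RBCS1A and CAB2, 3 were higher and 3 lower, and of 14 root markers 7 were higher and 2 lower, with medians of 0.02 and 0.20. The summed level of the shoot markers was 5024 to 5401 CPM in exa1-1 and 6058 to 6520 CPM in the wild type, most of it RBCS1A. The summed level of the root markers was 2319 to 2421 CPM against 2534 to 2572 CPM, most of it PYK10, a root beta-glucosidase gene (-0.16). The 7 root markers that were higher were EXPA7, COW1, PRP3, RHS13, RHS19, LRX1 and EXPA18, while RHD6 and RSL4, regulators of root hair growth, were not called (-0.07 and -0.02). EXPA18, an expansin gene of root hairs, was at 17.1, 16.7 and 18.3 CPM against 28.5, 27.5 and 26.3 CPM (0.66 ± 0.0837), and RHS19 and LRX1 were higher by 0.59 and 0.74. SPCH, the stomatal lineage gene of young leaves, was higher by 0.51, and TMM, FMA and AFO were not called. The part of organ shares in the photosynthesis result was not tested.

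Aquaporin genes, which encode water channels of the plasma membrane (PIP) and the vacuole (TIP), were lower in 15 of 19 cases and higher in 2, with a median of -0.49. PIP1A was at 448, 470 and 452 CPM against 314, 321 and 298 CPM (-0.56 ± 0.0399, adjusted p = 1.27e-14). DELTA-TIP was at 418, 418 and 431 CPM against 268, 262 and 200 CPM (-0.79 ± 0.0886), and RD28, TIP2_2 and TIP2_3 were lower by -0.75, -0.87 and -1.10. PIP2_4 and TIP4_1 were higher by 0.47 and 0.60. Of the NIP type, NLM1 was higher as well (1.27).

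Nutrient genes went in different directions by element, and those of iron homeostasis in no single one. Of 18 iron genes 5 were higher and 6 lower, with a median of -0.26. Those higher were 2 without replicate 2 of the wild type, and those lower were 3 with library totals alone. Of sulphur assimilation and starvation, 7 of 8 tested genes were lower and 0 higher, with a median of -0.64. LSU1, of a family induced by low sulphur, was at 4.91, 5.02 and 5.53 CPM against 1.17, 1.46 and 1.2 CPM (-2.01 ± 0.175, adjusted p = 3.6e-12), and LSU2 and LSU3 were lower by -1.13 and -1.59. The APS reductase genes APR1, APR2 and APR3, which reduce activated sulphate, were lower by -0.50, -0.64 and -0.64. Nitrate assimilation had 4 of 8 genes higher, with HRS1, a nitrate-induced repressor, at 0.82, and 1 lower, NRT1.1 (-0.28). Phosphate starvation had 5 of 10 higher, which were 3 without replicate 1 of the wild type, and 1 lower. Of 21 aliphatic glucosinolate genes, whose products are sulphur-rich, 16 were lower and 0 higher with a median of -0.25, from CYP79F1 (-0.77 ± 0.0599) to SOT18 (-0.15).

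Short genes were lower in exa1-1 and long genes higher. When the 20638 tested genes with a coding length were cut into 10 bins, the median log2 fold change ran from -0.27 in the bin of the shortest (27 to 438 bases) to 0.18 in that of the longest (2439 to 16203 bases). In the shortest bin 3.53% of genes were higher and 46.3% lower, and in the longest 45.8% were higher and 4.71% lower. The median climbed from each bin to the next in all 3 mutant libraries and stayed within 0.01 of 0 in the wild-type libraries. Spearman's rho between coding length and the log2 ratio to the wild-type mean was 0.415, 0.335 and 0.442 across genes in the mutant libraries. In the wild-type libraries it was 0.0375, -0.043 and 0.00829. These values describe genes of the same libraries, which are not independent replicates. With the salt-treated and 23 °C libraries the genotype difference had a rho of 0.183 and 0.127.

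**Figure D3:**
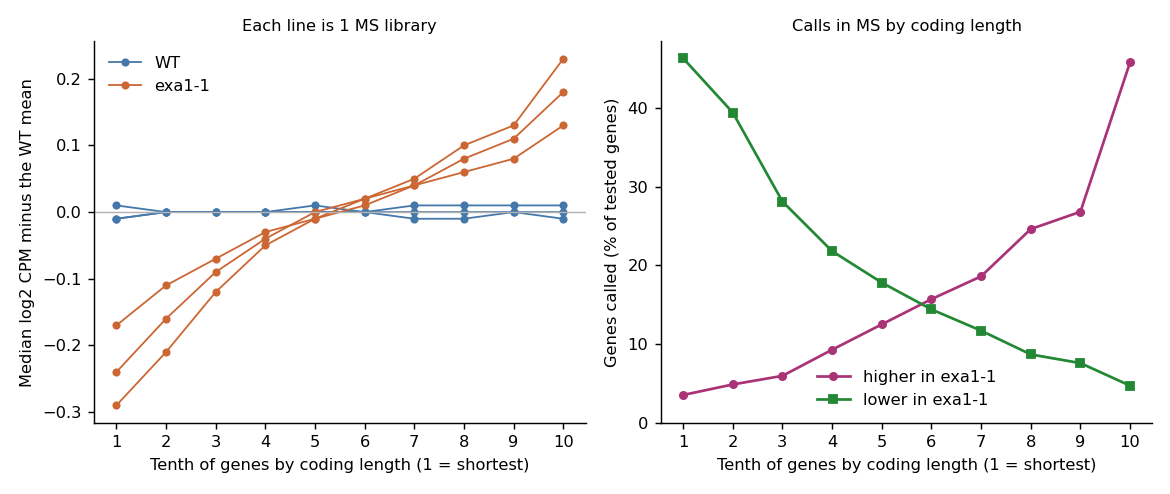
Left, median log2 CPM minus the wild-type mean against 10 bins of genes by coding length, 1 line for each MS library, wild type in blue and exa1-1 in orange. Right, the percentage of tested genes called higher (purple) or lower (green) in exa1-1 in each bin; higher calls climb from 3.53% to 45.8% and lower calls drop from 46.3% to 4.71%.

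Families of short or long genes moved with this trend in their medians. Of 177 cytosolic ribosomal protein genes, which are short, 138 were lower and 0 higher, with a median of -0.25 and a summed level of 54080, 56800 and 48910 CPM against 62730, 63450 and 61850 CPM. RPL18 was at 1110, 1130 and 1090 CPM against 1000, 1000 and 897 CPM (-0.20 ± 0.0418, adjusted p = 0.000222). After a trend on coding length and GC content had been taken off each library, 20 were lower and 14 higher and the median was -0.03. By GC content, 16.2% of genes were higher and 11.6% lower in the lowest bin, and 9.89% and 37.3% in the highest. Length and GC were taken off together, and their separate parts were not tested. Core and linker histone genes had 37 of 59 lower, which became 11 with the trend taken off and 28 without replicate 3 of exa1-1. The autophagy genes had 9 of 14 lower, all of the short ATG8 family, which became 3 with the trend taken off. Pentatricopeptide repeat genes, long genes of organelle RNA processing, had a median of 0.12. Of 236 tested, 27 were higher (11.4%, below the 16.5% of all genes) and 1 lower (0.424%, beside 19.5%). These became 6 and 7 with the trend taken off, and 18 and 2 without replicate 3 of exa1-1. Those higher were 17 with DESeq2 and 16 in the fit of all 24 libraries. With the same trend taken off, the median of the photosynthesis genes moved from -0.55 to -0.34, with 42 lower. The median was -0.63 with 20 lower for salicylate defence, -0.42 with 14 lower for auxin signalling, -0.39 with 13 lower for aquaporins and -0.67 with 7 lower for sulphur assimilation.

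**Figure D4:**
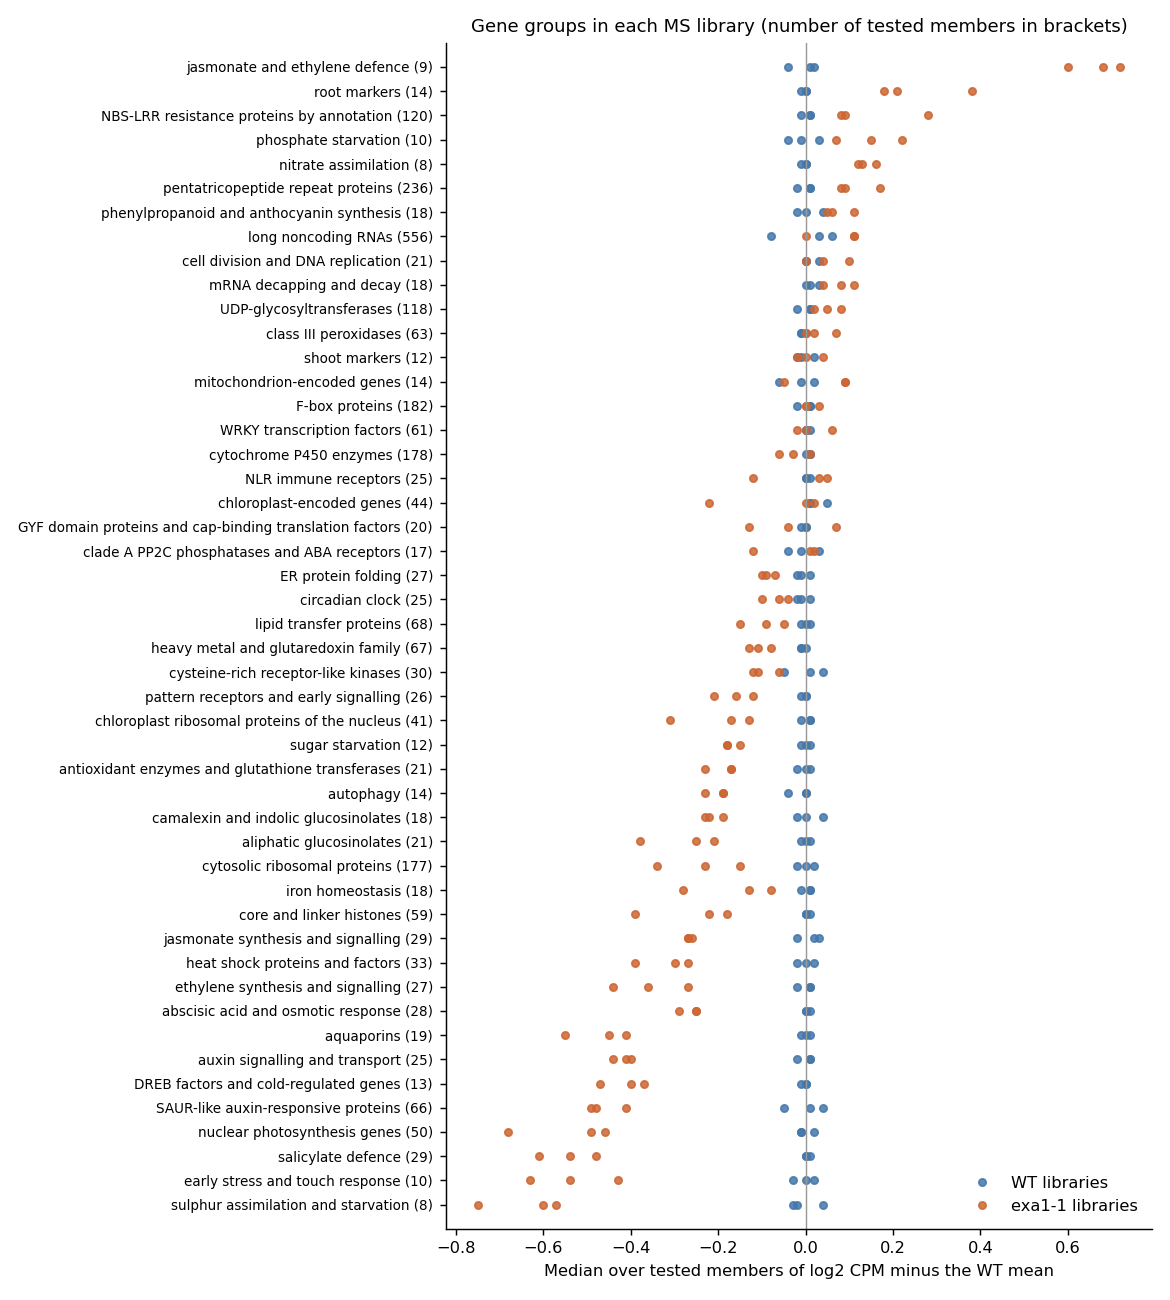
Median over the tested members of each gene group of log2 CPM minus the wild-type mean, in each of the 6 MS libraries (wild type blue, exa1-1 orange); the number of tested members is in brackets. The mutant libraries lie apart from the wild type on the same side in groups such as photosynthesis, salicylate defence and aquaporins, and straddle 0 in the NLR list and the group of cap-binding factors.

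Factors of translation and mRNA decay, EXA1 aside, differed by small amounts. Of 20 genes of GYF proteins and cap-binding factors 6 were higher (30.0%, beside 16.5% of all genes) and 3 lower (15.0%, beside 19.5%), EXA1 included. The median of -0.06 was 0.01 with library totals alone and 0.02 without replicate 3 of exa1-1. EIF4E was not called (-0.09), nor were EIF4A1 (-0.01) and eIFiso4G1 (0.05). EIF4G was higher by 0.16, which was -0.073 and not called with the trend on coding length taken off, and the poly(A)-binding protein genes PAB2, PAB4 and PAB8 by 0.17, 0.19 and 0.13, whereas NCBP, a cap-binding protein gene, was lower by -0.20. The widest difference after EXA1 was in AT4G01290, annotated as a chorismate synthase, at 69.0, 63.5 and 66.7 CPM against 88.2, 88.6 and 94.5 CPM (0.44 ± 0.053, adjusted p = 9.61e-09). Its list held the GYF domain gene AT1G24300 too, higher by 0.27, and AT1G27430 with the same domain was not called (0.10). Of 18 decapping and decay genes 6 were higher (33.3%) and 2 lower (11.1%), with a median of 0.07. The lower ones, LSM1A and LSM1B, were not called without replicate 3 of exa1-1 or with library totals alone. Those higher included VCS, a decapping scaffold (0.26), and XRN4, the cytosolic exonuclease (0.18). With the trend on GC content and coding length removed, 3 cap-binding and GYF genes were higher and 5 lower, and 1 decay gene was higher and 1 lower. Of 21 genes of cell division and replication 7 were higher, including MCM2 of the replicative helicase (0.41), but 3 were higher without replicate 3 of either genotype and 4 without replicate 2 of exa1-1.

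Genes close to EXA1 were examined separately. Within 500 kb on either side, 206 other genes were tested, of which 41 were higher and 35 lower (36.9%), beside 36.8% on the rest of chromosome 5. Of these, 7 differed at least 2-fold (3.40%, against 2.59%). TZP lies 295 kb from EXA1, and YUC5, an auxin synthesis gene at 417 kb, was lower by -1.22 ± 0.164. AT5G42530, an uncharacterized protein gene at 219 kb on the other side, was at 122, 147 and 129 CPM against 46.6, 52.6 and 54.8 CPM (-1.37 ± 0.0913).

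The genotype comparison in MS was set beside those in 200 mM NaCl and at 23 °C, which share no library with it. The series' design text describes a single unstressed condition, whereas the labels give MS and 23 °C as separate control groups, and how these differed is not given in the sources used here. In NaCl 6950 genes were called, or 32.4% of those tested, 15.3% higher and 17.1% lower. In common with MS were 3549, which is 46.0% of the MS calls and 51.1% of the NaCl calls, and 572 of the common calls had opposite signs. At 23 °C 8222 of 21917 genes were called (37.5%), 18.3% higher and 19.2% lower. Of the genes tested in both fits, 3750 were called in both, 48.6% of the MS calls and 46.0% of the 8153 at 23 °C, and 1160 of them (30.9%) had opposite signs. A test of whether the genotype fold change itself differed between conditions called 4291 genes between MS and NaCl (20.0%). That fold change was higher in MS in 2007 of them (9.36%) and lower in 2284 (10.6%). Between MS and 23 °C the test called 6260 genes (28.6%), with the fold change higher in MS in 2694 (12.3%) and lower in 3566 (16.3%).

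Called with the same sign in all 3 conditions were 1330 genes, 467 higher and 863 lower, or 17.2% of the MS calls. The PDF1 genes were among them: PDF1.3 had log2 fold changes of 3.57 in MS, 2.77 in NaCl and 3.65 at 23 °C, and PDF1.2 of 3.90, 2.51 and 3.24. AT1G64795 was higher in each condition (adjusted p = 5.2e-32 in NaCl and 5.21e-42 at 23 °C), as were MRD1 (2.54 in NaCl and 3.20 at 23 °C) and TZP (0.94 and 0.84). IAA29 was lower in each (-1.62 and -3.19), as were BGL2 (-1.86 and -1.55), WRKY70 (-0.78 and -1.01), XTH15 (-1.03 and -2.06), LHCB3 (-1.46 and -0.84) and ERF2 (-0.88 and -0.89).

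Other genes were called in MS and not in NaCl or at 23 °C, and passed the test of the difference from both. GH3.3 was lower by -1.80 in MS, with a value of 0.11 in NaCl and one near 0 at 23 °C, neither of them called (edgeR adjusted p of the difference = 2.99e-18 from NaCl and 1.93e-13 from 23 °C). BRU6 had -1.60, 0.14 and -0.01 in the same order (1.88e-17 and 4.85e-15). NRT2:1 was higher by 0.92 in MS with -0.08 and -0.25 elsewhere (2.05e-08 and 4.25e-07), CGA1 by 0.98 with 0.07 and -0.08 (0.000887 and 1.99e-07) and NLM1 by 1.27 with 0.16 and -0.23 (0.00253 and 7.34e-11). RPP4 was higher in MS and NaCl (0.80 and 0.73) and had 0.01 at 23 °C, a difference from MS that passed the test (5.3e-05). Some genes had opposite signs: ESM1, a myrosinase-associated lipase-like gene, was lower by -0.70 in MS and higher by 0.58 at 23 °C, APR3 went from -0.64 to 0.41 and RPL18 from -0.20 to 0.53. Between MS and NaCl this was so for CYP94B3 (-1.29 and 0.96), for the thioredoxin gene TH8 (-1.11 and 1.17) and for PIP1A (-0.56 and 0.40).

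The gene groups were set side by side over the conditions. Cytosolic ribosomal protein genes, with 138 of 177 lower in exa1-1 in MS, had 132 of 178 higher and 3 lower at 23 °C, where the median was 0.29. By the test of the difference, 159 had a lower log2 fold change between genotypes in MS than at 23 °C. The aliphatic glucosinolate genes had 16 of 21 lower in MS, 20 lower in NaCl and 10 higher and 3 lower at 23 °C, with medians of -0.25, -0.91 and 0.22. Heat shock genes had a median of -0.34 in MS and 0.23 at 23 °C, and genes of ER protein folding -0.09 and 0.19, with 11 of 27 lower in MS (6 with library totals alone) and 16 higher at 23 °C. ABA and osmotic response genes were lower in MS and at 23 °C (medians -0.49 and -0.28) and had a median of 0.12 in NaCl. Salicylate defence genes were lower in all 3, with 19, 14 and 21 of 29 members and medians of -0.56, -0.28 and -0.93, and photosynthesis genes with 44, 49 and 37 of 50 and medians of -0.55, -0.78 and -0.35.

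**Figure D5:**
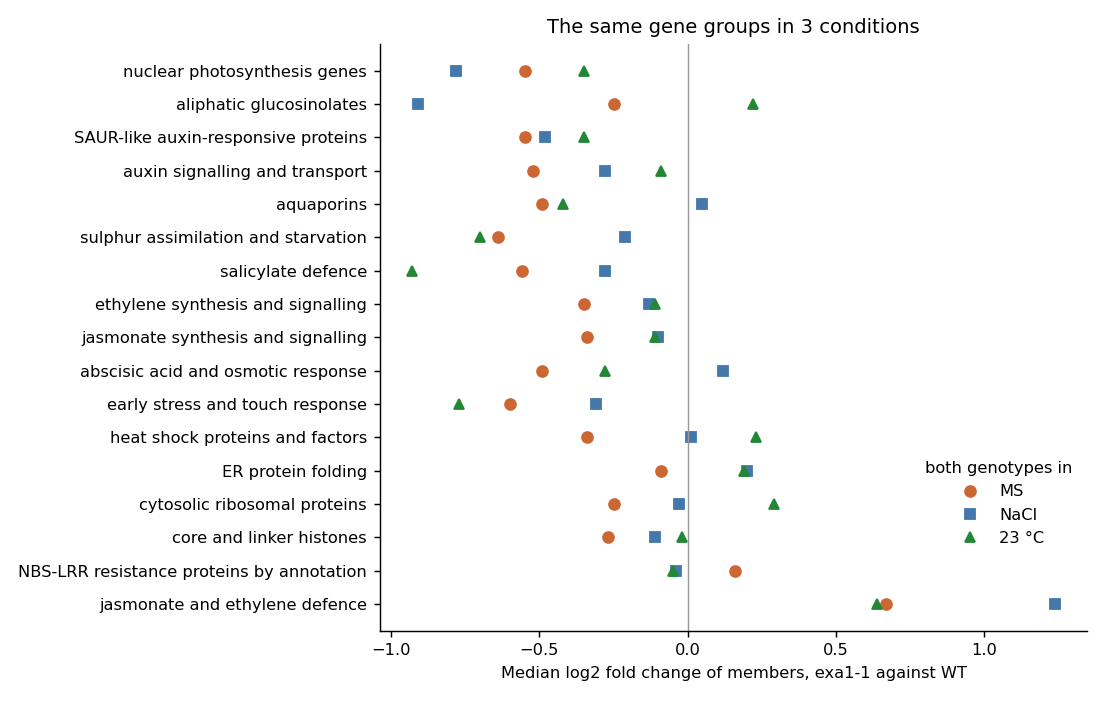
Median log2 fold change of exa1-1 against the wild type over the tested members of 17 gene groups, in MS (circles), NaCl (squares) and at 23 °C (triangles). Photosynthesis and salicylate defence lie below 0 in all 3 conditions, whereas cytosolic ribosomal proteins, heat shock genes and aliphatic glucosinolate genes lie below 0 in MS and above 0 at 23 °C.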

How the data were processed

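Polysome-bound mRNA of whole seedlings was sequenced with strand-specific paired-end Illumina libraries, per the labels' protocols. Reads were aligned to TAIR10 with HISAT2 2.0.4 and counted with HTSeq 0.6.1p1, per the submitters' processing notes; the options used are not given in the sources used here. The authors deposited whole-number read counts per gene, which were used for all tests, and FPKM values (fragments scaled to gene length and library size), which were used for 2 alternatives only (pseudocounts of 1 and 0.1), with a mean of at least 0.5 FPKM. Samples were grouped by their labels, and replicate numbers were not used as a block, since deviations of same-numbered samples correlated by only -0.0036, 0.0871 and 0.0919.

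Counts were analysed with edgeR 4.0.16 in R 4.3.3: filterByExpr with a minimum count of 10 and a minimum total of 15, TMM scaling, and a quasi-likelihood test with Benjamini-Hochberg adjustment at 0.05. The MS and NaCl comparisons and their difference come from a fit of the 12 MS and NaCl libraries, and the values at 23 °C with their difference from MS come from a fit of all 24 libraries. limma 3.58.1 and DESeq2 1.42.0 were used for alternatives. On simulated counts of the MS comparison over 20886 genes, 50 genes were changed at each fold. Recovered were 50% at 1.25-fold, 94% at 1.5-fold and 100% at 2-fold, and 9 of 181 calls were false. For the differences from NaCl and from 23 °C, 26% and 38% were recovered at 1.25-fold, and 62% and 64% at 1.5-fold. Few genes were changed in the simulation, whereas 36.0% of genes were called in the data. Whether these rates hold for those calls, or for genes with low counts taken alone, was not tested. The labels call the replicates independent, and p-values measure the spread between these samples.

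Genes for naming were EXA1 and the 25 called genes with the widest change each way. The 25 were taken among genes with a symbol, at least 5 CPM in the higher group and no overlap between genotypes. Added were up to 6 called members of each gene list each way by p-value, and called genes within 500 kb of EXA1. Only some of these genes are printed above. Uncalled or further members of a list, and genes without a symbol, were named after their values were seen. The members of the comparison and the 48 gene lists (31 written by hand, 17 by annotation) were chosen with earlier results of these data known. In the report, a trend on coding length and GC content, estimated library by library, was taken off as an alternative chosen after the data were seen. Promoters and coding lengths were read from the RefSeq annotation of TAIR10.1. Other alternatives were size factors, library totals, filters, other sets of libraries and leaving out each library in turn.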

Additional observations from a re-analysis of the deposited data

Results flagged for a closer look

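For 4 of the most decreased genes in MS the genotype difference was called in the opposite direction in NaCl, and the test of the difference between the conditions was passed. The log2 fold change in MS minus that in NaCl was -2.79 for ELI3-2, an elicitor-activated dehydrogenase gene, -2.27 for UMAMIT33, an amino acid transporter-like gene, -2.14 for FAR1, a fatty acid reductase gene of suberin synthesis, and -2.16 for PBS3, which acts in salicylate synthesis. Over all genes tested, the genotype difference in MS differed from that in NaCl in 4291 genes and from that at 23 °C in 6260 genes.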

How the results depend on the processing

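With at least 2-fold required beside the adjusted p, 127 genes were higher and 393 lower in MS, 442 differed from NaCl, 497 differed from 23 °C and 58 list members were called in place of 393. Library totals alone gave 5717 higher genes. Leaving out each library in turn gave 2807 to 3547 higher and 3510 to 4180 lower genes, 3522 to 4513 and 5506 to 6384 genes differing from NaCl and 23 °C, 360 to 391 list members called, and a log2 fold change of EXA1 from -2.82 to -2.72. Of the 510 genes selected for naming, called named genes here though the text prints only some of them, 82 lost their call without some library. With coding length and GC trend taken off, 2719 genes were higher and 3249 lower. Shared with the main calls were 4618, which is 59.8% of the main calls. In that fit 85 named genes lost their call with the same sign, the most in any setting, and 10 changed sign. Named genes that changed sign then, with the cause not tested, were emb2386 (0.0025), PEN3 (-0.084), TPS10 (-0.026), RNR1 (-0.0026), LSM1B (0.011), BTS (-0.015), EIF4G (-0.073), CIP1 (-0.044), SDG25 (-0.059) and PAH2 (-0.03). DESeq2 gave 2971 higher and 3830 lower, and the 6 MS libraries alone 3282 and 3737. With the replicate number as a block, 3593 genes were higher and 4257 lower, 4447 differed from NaCl and 6122 from 23 °C, 401 list members were called, EXA1 was at -2.76, and 1 of the 510 named genes lost its call. At this depth 47 of 50 simulated 1.5-fold changes were recovered, a rate not tested for genes with low counts taken alone.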

Other observations

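Flavonol synthesis was described in no comparison above. FLS1, which makes flavonols, was higher in exa1-1 by 0.76 on the log2 scale, the chalcone synthase gene TT4 by 0.64, F3H by 0.58 and TT5 by 0.47. These were the 4 higher of 18 tested phenylpropanoid and anthocyanin genes (22.2%, beside 16.5% of all genes tested). Lower were 2 (11.1%, beside 19.5%), and values over the group ran from -3.11 to 0.76. PAL1, PAL2 and C4H of the entry steps were not called (0.08, -0.07 and -0.01). Of 21 antioxidant and glutathione transferase genes 11 were lower and 3 higher. GSTU3 had 117, 78 and 68 counts in the wild type and 8, 2 and 2 in exa1-1, GSTU4 was lower by -0.93 and GSTU5 by -0.72, whereas the superoxide dismutase genes CSD1 and CSD2 were higher by 0.29 and 0.55.

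Genes induced by sugar starvation were lower in 6 of 12 cases and higher in 2, with DIN2 at -1.89 and SEN1 at -0.72. The clock genes had 7 of 25 lower and 4 higher, and their median of -0.10 was 0.02 on the FPKM scale, so no common direction can be given.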
